A study of Mus musculus with 19 samples.

Results

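Gene expression was compared between reperfused hearts of wild-type mice taken at ZT12 and at ZT0, the zeitgeber times at which lights go off and on. The comparison used 14 of the 19 hearts of the study, 7 at each time, and covered every gene named by 1 gene symbol in the platform annotation. Where a gene had several probe sets, the one with the highest mean was taken, which gave 22180 genes. The wild-type mice were of strain C57Bl6J, and the replicates were labelled as biological, so each array was taken as 1 heart. Each heart was perfused in isolation by the Langendorff method, in which buffer enters through the aorta, first for a stabilisation period, then with the pump off for ischemia and then on again for reperfusion, each lasting 20 min. Hearts were then frozen, and 300 ng of total RNA was labelled for Affymetrix whole-transcript arrays. The remaining 5 hearts were taken at ZT12 from mice lacking Rev-erb alpha and were perfused in the same way. Their values are given beside the wild-type values, and the labels give no strain for them. All hearts had passed through ischemia and reperfusion, so no value here describes a heart that was not ischemic. Age, sex and batch are not given in the labels, and only these 2 times of day were sampled.

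The circadian clock of heart muscle cells is a feedback loop of transcription. BMAL1 and CLOCK activate genes through E-box sequences, and their products, the period and cryptochrome proteins, then repress that activity. In a second loop the nuclear receptors REV-ERB alpha and beta repress the gene of BMAL1 through ROR response elements, and factors such as DBP and NFIL3 act in opposite directions on D-box sequences. In the heart this clock is known to time metabolism, contraction and the response to ischemia.

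Values are log2 array intensities, so a difference of 1 is a doubling. Genes were called where limma gave an adjusted p under 0.05, with Benjamini-Hochberg adjustment over all genes tested. This rule called 250 genes (1.13% of 22180), of which 143 were higher at ZT12 (0.645%) and 107 were lower (0.482%). Most changes were small. Only 12 of the called genes differed by over 2-fold and 71 by over 1.5-fold, and the median fold was 1.38 for those that rose and 1.35 for those that fell. The median difference over all genes was -0.0035 and the median SE 0.096. The number of arrays limits the precision. Calls were more frequent among brightly measured genes: 3.29% of the 2218 brightest genes were called, and 0.0947% of the 7394 dimmest genes. Of the called genes, 143 had groups with no overlap between the 7 hearts of each time. Among all genes tested 0.902% had no overlap, 0.528% with the ZT12 hearts higher and 0.374% with them lower.

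**Figure D1:**
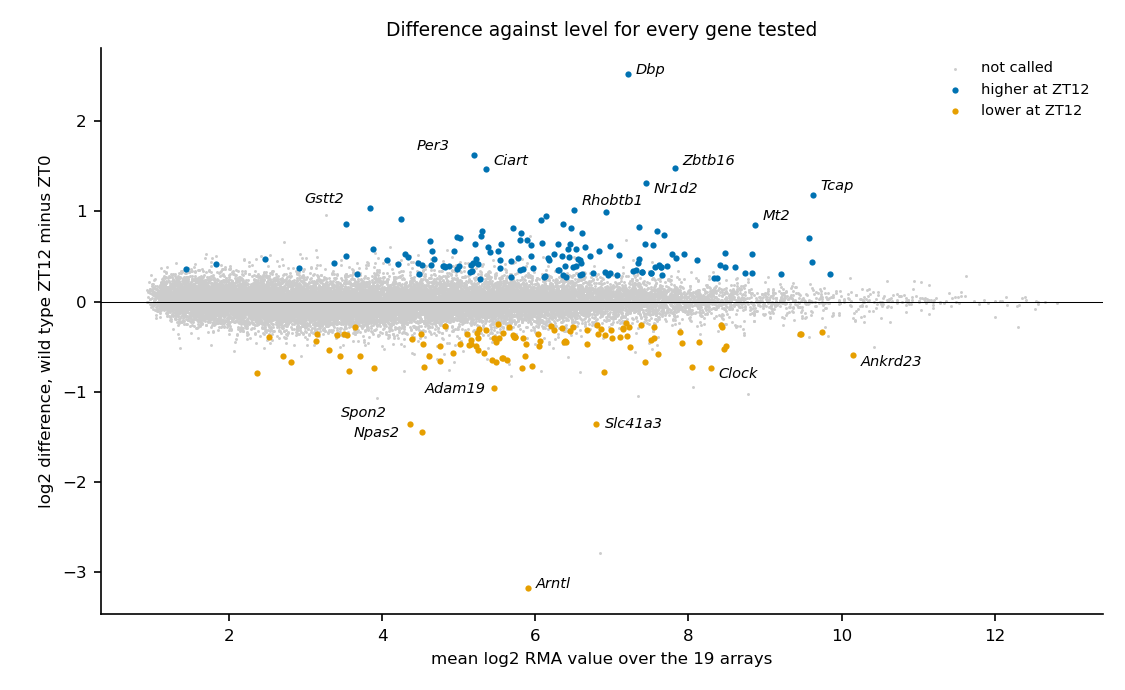
The log2 difference between wild-type hearts at ZT12 and ZT0 (vertical axis) is plotted against the mean log2 value over the 19 arrays (horizontal axis) for each of the 22180 genes tested. Blue points are the 143 genes called higher at ZT12, orange points the 107 called lower and grey points the rest, with Dbp at the top and Arntl at the bottom.

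The tissue label was checked against marker genes. The 12 cardiomyocyte markers had mean levels of 11.01 to 11.05 at ZT0 and 10.97 to 11.07 at ZT12, and 0 of them was called. Atrial muscle transcripts differed between hearts. The mean of Myl7, Myl4, Sln, Nppa and Bmp10 lay more than 1 log2 unit below the median of the arrays (9.28) in 1 ZT0 heart, replicate 1, and in 4 ZT12 hearts, replicates 3 to 6. It also lay that far below in 3 of the 5 knockout hearts. Bmp10, a growth factor gene of atrial muscle, was at 3.86 in that ZT0 heart and at 3.42 to 3.70 in those 4 ZT12 hearts, while it was at 9.54 to 10.30 in the other wild-type hearts. Myl7 was at 8.65 in ZT0 replicate 1 and at 8.73 and 9.10 in ZT12 replicates 4 and 6. The wild-type hearts with high Bmp10 had 8.31 to 9.70. Sln was at 9.66, 9.48 and 9.87 in the same hearts, against 9.56 to 10.56. ZT12 replicates 3 and 5 were low in both, with Myl7 at 7.49 and 5.29 and Sln at 8.48 and 5.09. Arrays called low in atrial transcripts below are those low in the mean that includes Bmp10. Over the 14 atrial markers the mean level ran from 7.31 to 8.17 at ZT0 and from 6.14 to 8.13 at ZT12, the median difference was -0.25, and 0 of the 14 genes was called. The named genes, gene lists and gene families were therefore also computed without these 8 arrays, which left 6 hearts at ZT0 and 3 at ZT12. This called 44 genes higher and 17 lower, and 53 of these 61 genes were among the 250. Of 106 named genes, 45 passed, 61 did not and 0 changed direction. Their differences without the 8 arrays were 0.572 to 1.51 times those reported, with a median ratio of 0.999, and 4 of the 106 moved by over 1.5 times. Motif counts, kinds of gene and probe sets were not recomputed in this way. The part of the atrial transcripts in the results was not tested beyond these values. Of the other marker lists, the endothelial list had 1 called gene, Kdr, and the remaining ones had 0. All 8 smooth muscle markers lay below 0, with a median of -0.14 and mean levels of 5.92 to 6.28 at ZT0 and 5.72 to 5.94 at ZT12. As each array measured the mixed cells of a heart sample, fewer cells of a type and less RNA per cell cannot be told apart. The labels do not say whether atria were removed from some hearts.

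**Figure D2:**
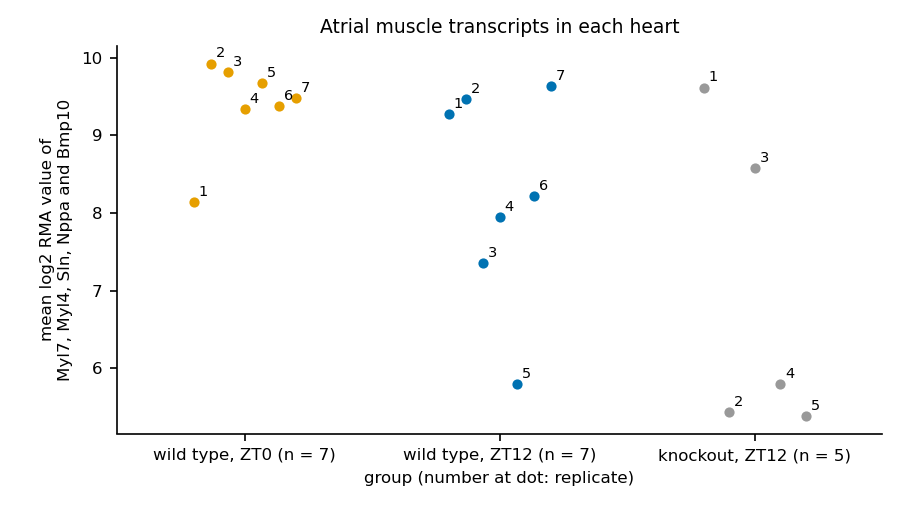
Each point is 1 heart, with its replicate number, and the vertical axis is the mean log2 value of Myl7, Myl4, Sln, Nppa and Bmp10. The lowest wild-type heart is ZT12 replicate 5 at 5.79, ZT0 replicate 1 stands at 8.14, and the other ZT0 hearts lie between 9.33 and 9.92.

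Clock genes gave the largest changes in both directions, and 250 bases before the annotated start of 6 genes with large changes are shown here because they hold the letters that clock factors are known to bind. The sequences are from RefSeq on GRCm38.p6, written in the direction of the gene, with the motif in capitals. Those of Ciart (chr3:95882229-95882478, minus strand), Per1 (chr11:69098699-69098948, plus strand) and Rhobtb1 (chr10:69212407-69212656, plus strand) belong to genes that rose, and the capitals mark the E-box CACGTG.
Ciart: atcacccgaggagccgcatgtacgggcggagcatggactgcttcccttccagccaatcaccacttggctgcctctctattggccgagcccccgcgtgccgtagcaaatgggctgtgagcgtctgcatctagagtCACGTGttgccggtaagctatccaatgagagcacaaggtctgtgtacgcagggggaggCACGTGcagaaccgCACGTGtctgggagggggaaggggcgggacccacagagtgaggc
Per1: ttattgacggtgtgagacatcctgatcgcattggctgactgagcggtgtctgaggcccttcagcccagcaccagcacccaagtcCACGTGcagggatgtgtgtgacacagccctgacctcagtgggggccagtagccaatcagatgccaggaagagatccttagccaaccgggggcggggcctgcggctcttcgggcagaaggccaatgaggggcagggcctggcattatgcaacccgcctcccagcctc
Rhobtb1: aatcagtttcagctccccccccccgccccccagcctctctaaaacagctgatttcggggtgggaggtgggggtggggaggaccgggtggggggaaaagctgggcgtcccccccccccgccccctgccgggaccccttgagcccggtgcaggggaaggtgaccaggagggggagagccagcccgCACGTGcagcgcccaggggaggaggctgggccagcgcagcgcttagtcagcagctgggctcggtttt
Per3 (chr4:151044666-151044915, minus strand) also rose, and its capitals mark 2 copies of the D-box TTATGTAA.
Per3: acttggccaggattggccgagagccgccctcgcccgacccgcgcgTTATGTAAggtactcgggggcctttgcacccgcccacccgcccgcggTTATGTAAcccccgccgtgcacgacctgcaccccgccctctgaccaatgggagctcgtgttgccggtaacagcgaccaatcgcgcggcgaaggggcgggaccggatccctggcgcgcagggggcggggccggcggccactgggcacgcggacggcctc
Nfil3 (chr13:52981040-52981289, minus strand) and Slc41a3 (chr6:90618996-90619245, plus strand) were lower at ZT12. In Nfil3 the capitals mark a ROR response element, here on the opposite strand, and in Slc41a3 they mark an E-box.
Nfil3: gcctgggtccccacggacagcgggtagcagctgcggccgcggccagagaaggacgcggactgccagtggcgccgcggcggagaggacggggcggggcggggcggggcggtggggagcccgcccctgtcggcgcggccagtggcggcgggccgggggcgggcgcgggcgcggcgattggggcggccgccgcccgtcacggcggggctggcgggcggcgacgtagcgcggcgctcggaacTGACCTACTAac
Slc41a3: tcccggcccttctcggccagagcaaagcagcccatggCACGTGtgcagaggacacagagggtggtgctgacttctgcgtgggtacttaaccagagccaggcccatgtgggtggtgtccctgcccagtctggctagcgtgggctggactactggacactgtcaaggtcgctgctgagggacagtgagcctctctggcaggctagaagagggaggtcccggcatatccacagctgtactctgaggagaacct

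The same motifs were counted on both strands in windows from 250 bases before to 50 bases after the start, taken as CACGTG for the E-box, TTATGTAA or TTACGTAA for the D-box, and, for the ROR response element, A or T at each of the leading bases, then any base, then TAGGTCA. None of these motifs contains another. RefSeq windows were at hand for 111 of the genes that rose and 78 of those that fell, and for 16918 of all genes tested. The E-box was in 21 of the risen genes (18.9%), in 8 of the fallen genes (10.3%) and in 9.22% of all. The D-box was in 4 risen genes (3.6%), Per3, Coq10b, Il1rl2 and Map2k6, in 1 fallen gene, Snx30, and in 1.16% of all. The ROR response element was in 0 risen genes and in 4 fallen genes (5.13%), namely Arntl, Nfil3, Fam124b and Leo1, against 0.627% of all. In Arntl it began 27 bases after the start, outside the stretches of the kind printed above. These counts describe letters in the windows and were not tested, and the gene names among them were chosen after the values were seen.

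Activators of the clock were among the genes that fell. Of the 6 measured genes of this list, 3 were lower at ZT12, 0 rose and 3 did not pass, with a list median of -0.40. Arntl, which encodes BMAL1, was at 7.18, 7.27 and 7.36 (lowest, median and highest heart) at ZT0 and at 3.72, 4.09 and 4.31 at ZT12. All ZT12 hearts were far below all ZT0 hearts. The difference of -3.18 (SE 0.0908; limma adjusted p = 9.25e-16) is the largest fall among the called genes. Npas2, whose protein can take the place of CLOCK, was at 4.83, 5.15 and 5.60 at ZT0 and at 3.15, 3.76 and 4.15 at ZT12. Clock itself was at 8.45, 8.61 and 8.67 at ZT0 and at 7.78, 7.85 and 7.99 at ZT12. Neither gene had overlapping groups. Npas2 differed by -1.45 (SE 0.133; adjusted p = 8.23e-07) and Clock by -0.73 (SE 0.0565; adjusted p = 4.68e-08). The other members, Arntl2 at -0.06, Rora at 0.21 and Rorb at 0.06, did not pass. Without the 8 arrays low in atrial transcripts, 3 of the 6 were again lower.

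Most repressors of the clock rose. Of 10 measured, 7 rose, 0 fell and 3 did not pass, and the list median was 0.69. Per3, a period gene, was at 3.77, 4.23 and 4.42 at ZT0 and at 5.57, 5.80 and 6.09 at ZT12. Per1, also a period gene, was at 6.03, 6.29 and 6.45 at ZT0 and at 6.79, 7.35 and 7.49 at ZT12. Both had every ZT12 heart above every ZT0 heart, with differences of 1.63 (SE 0.0982) for Per3 and 0.99 (SE 0.112; adjusted p = 1.95e-05) for Per1. Ciart, whose protein inhibits CLOCK and BMAL1, was at 3.95, 4.37 and 4.79 at ZT0 and at 5.24, 5.85 and 6.07 at ZT12, again with no overlap. Cry2, a cryptochrome gene, was at 4.46, 4.71 and 5.19 at ZT0 and at 5.30, 5.57 and 5.67 at ZT12. Bhlhe41, which encodes the E-box repressor DEC2, was at 4.93, 5.10 and 5.33 at ZT0 and at 5.61, 5.65 and 5.81 at ZT12. In these genes too the groups lay apart, the gap in Cry2 being the narrower one. Cry2 differed by 0.79 (SE 0.109; adjusted p = 0.000244) and Bhlhe41 by 0.56 (SE 0.0788; adjusted p = 0.000293). Both calls ended without the arrays low in atrial transcripts (adjusted p = 0.055 and 0.0552), where 4 of the 10 repressors rose. Bhlhe40, the gene of DEC1, was 0.50 higher but did not pass (adjusted p = 0.0536), and neither did Cry1 at -0.12 or Timeless at -0.04. Bhlhe40 was called higher with only the 14 wild-type arrays, when eBayes used a trend, and with dim genes (mean under 4 at both times) left out. It was also called after a further quantile normalization, with the atrial mean as a covariate, and without the 4 arrays whose atrial mean was under 6. Without the 8 low arrays, or without ZT12 replicate 3 or 5, it was not called.

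Both Rev-erb genes were called, with no test of the difference between them. Nr1d2, which encodes REV-ERB beta, was at 6.30, 6.54 and 6.88 at ZT0 and at 7.72, 7.94 and 8.04 at ZT12, with no overlap and a difference of 1.32 (SE 0.0868). Nr1d1, the gene of REV-ERB alpha, was at 5.76, 6.12 and 6.67 at ZT0 and at 6.46, 6.64 and 7.28 at ZT12, and these groups overlapped. Its difference of 0.59 (SE 0.133; adjusted p = 0.0289) was lost on leaving out ZT0 replicate 1, 2, 3, 4 or 6 or ZT12 replicate 1, 6 or 7 (adjusted p 0.0521 to 0.0707). It also ended with only the 14 wild-type arrays in the model (0.0709), without the 4 arrays whose atrial mean was under 6 (0.0512), and without the 8 arrays low in atrial transcripts (0.255). The gene of the thyroid hormone receptor alpha, Thra (chr11:98740776-98769006), overlaps Nr1d1 (chr11:98767932-98775377) on GRCm38.p6. Thra was called in the opposite direction, from 5.38, 5.53 and 5.72 at ZT0 to 5.01, 5.20 and 5.35 at ZT12 (difference -0.35, SE 0.0772; adjusted p = 0.0227). That call was lost without ZT0 replicate 2 or 4 or ZT12 replicate 3 (adjusted p 0.0502 to 0.0543), with the atrial mean as a covariate (0.0747) and without the low arrays (0.199). Of the 45 nuclear receptor genes measured, these 3 were the called ones, and the list median was 0.03.

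All 4 members of the PAR bZIP and NFIL3 group, which bind D-boxes, were called. Dbp, an activator and a direct output of the clock, was at 5.16, 5.54 and 6.01 at ZT0 and at 7.91, 8.12 and 8.22 at ZT12. Its ZT12 hearts lay in a much narrower range than its ZT0 hearts, nearly 2 units above them. The difference of 2.52 (SE 0.108; adjusted p = 1.96e-12) was the largest rise of all called genes. Hlf, a second activator, was at 4.96, 5.23 and 5.58 at ZT0 and at 5.90, 6.001 and 6.37 at ZT12. Tef, the third, was at 4.48, 4.83 and 4.96 at ZT0 and at 5.28, 5.47 and 5.78 at ZT12. The groups of both were apart. Hlf differed by 0.76 (SE 0.0898; adjusted p = 3.53e-05) and Tef by 0.72 (SE 0.0895; adjusted p = 5.9e-05), but a second, dim probe set of Tef was at -0.18 and the mean of its probe sets, at 0.27, did not pass (adjusted p = 0.0788). Nfil3, the repressor that competes for the same sites, went the other way, from 5.93, 6.29 and 6.72 at ZT0 to 5.23, 5.59 and 5.82 at ZT12. Its groups did not overlap (difference -0.72, SE 0.107; adjusted p = 0.000499), and without the 8 low arrays its call ended (0.246).

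**Figure D3:**
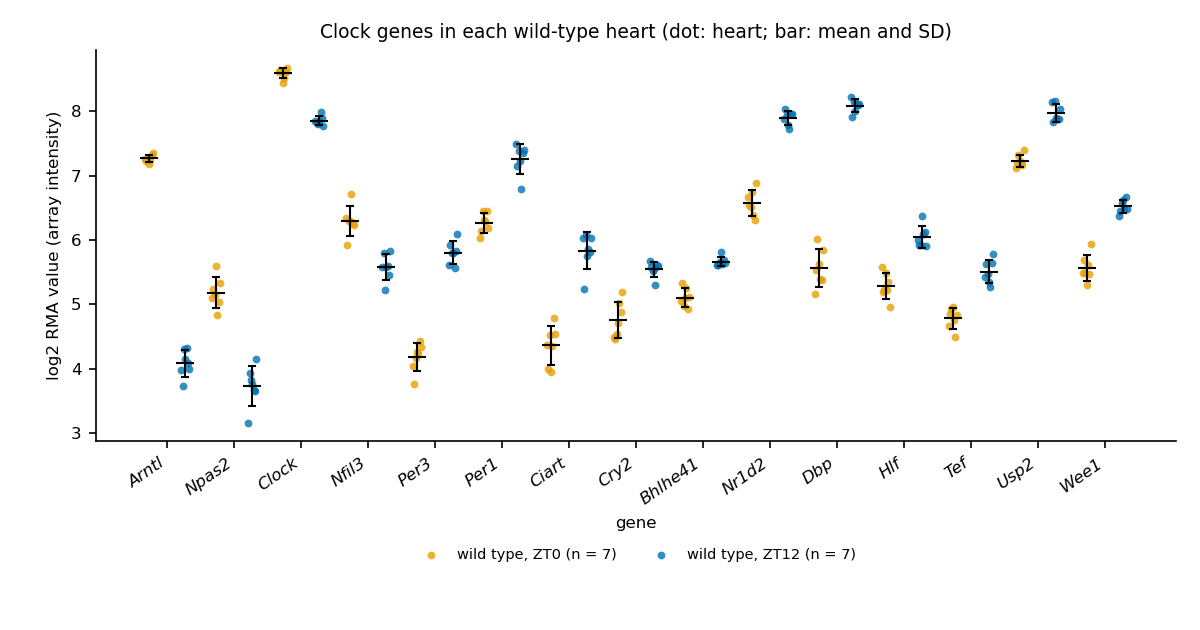
Each dot is 1 wild-type heart (orange ZT0, blue ZT12, 7 each), the vertical axis is the log2 array value, and bars give the mean and SD. Arntl, Npas2, Clock and Nfil3 are lower at ZT12 and the 11 other genes are higher. The 15 genes were picked from called genes, and in each the times do not overlap, as in 0.902% of all genes tested. Nr1d1, which was called with overlapping groups, and the clock genes that did not pass are not shown.

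Further genes close to the clock rose. Usp2, which encodes a deubiquitinase that acts on clock proteins, was at 7.12, 7.20 and 7.40 at ZT0 and at 7.83, 7.89 and 8.15 at ZT12 (difference 0.74, SE 0.0669; adjusted p = 7.02e-07). It was the 1 called gene among 21 measured that modify clock proteins, such as casein kinases and F-box proteins, and the median of that list was 0.02. Wee1, the kinase that holds back entry into mitosis, was at 5.29, 5.48 and 5.94 at ZT0 and at 6.37, 6.48 and 6.66 at ZT12 (difference 0.95, SE 0.102; adjusted p = 8.4e-06). Both genes had separate groups. Cirbp, which encodes a cold-inducible RNA-binding protein, was the 1 of 29 genes in its list that was called, with a difference of 0.47 (SE 0.0864; adjusted p = 0.00534). In that list 5 genes rose when eBayes used a trend or when dim genes (mean under 4 at both times) were left out. They were Cirbp, Clk4, Hnrnpdl, Hnrnpk and Srsf2. After a further quantile normalization 3 of the 29 rose. Noct, named after its values were seen, encodes the phosphatase nocturnin and was 0.42 higher (SE 0.0836; adjusted p = 0.012). The calls for Cirbp and Noct ended without the 8 low arrays (adjusted p = 0.245 and 0.125).

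Glucocorticoid-responsive genes made up the list with the most calls. Of 29 measured, 9 rose, 2 fell and 18 did not pass (37.9% called, against 1.13% of all genes). The lists were chosen with earlier results of these data known, so this share is description only. The list median was 0.21, and 1 of the 9 that rose, Per1, is a clock repressor as well. That median was 0.14 without ZT12 replicate 2 and 0.32 with the atrial mean as a covariate. Zbtb16, which encodes the zinc-finger repressor PLZF, was at 6.54, 6.79 and 6.98 at ZT0 and at 8.07, 8.20 and 8.50 at ZT12. It stood more than 1 log2 unit above the highest ZT0 heart in every ZT12 heart, with a difference of 1.48 (SE 0.0926). Klf9 and Klf15 encode Krüppel-like factors, the second of which controls amino acid and lipid use in heart. Klf9 was at 7.63, 7.72 and 8.02 at ZT0 and at 8.06, 8.21 and 8.38 at ZT12, without overlap (difference 0.46, SE 0.0715; adjusted p = 0.000888). Klf15 was at 4.99, 5.24 and 5.48 at ZT0 and at 5.46, 5.62 and 6.02 at ZT12, with a small overlap (difference 0.46, SE 0.0987; adjusted p = 0.0185). They were the 2 called genes of 17 Krüppel-like factors measured. Glul, the gene of glutamine synthetase, rose by 0.44 (SE 0.0655; adjusted p = 0.000567), Sult1a1, a sulfotransferase gene, by 0.58 (SE 0.114; adjusted p = 0.00909) and Map3k6, a stress kinase gene, by 0.67 (SE 0.137; adjusted p = 0.0134). Without the arrays low in atrial transcripts 4 of the 29 rose and 1 fell, and Glul, Klf15, Sult1a1 and Map3k6 did not pass (adjusted p 0.103 to 0.134).

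The 2 members of that list that fell are stress genes. Cdkn1a, which encodes the cell cycle inhibitor p21, was at 6.72, 7.12 and 7.40 at ZT0 and at 5.85, 6.29 and 6.70 at ZT12. Ddit4, which encodes the mTORC1 inhibitor REDD1, was at 5.25, 5.59 and 5.74 at ZT0 and at 4.32, 4.94 and 5.17 at ZT12. The groups of both came close without overlapping. Cdkn1a differed by -0.78 (SE 0.133; adjusted p = 0.00214), a call that ended without the 8 low arrays (0.0994), and Ddit4 by -0.68 (SE 0.127; adjusted p = 0.00661). Cdkn1a was also the only called gene among 32 cell cycle inhibitor and p53 target genes, whose median was 0.07.

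Heart muscle structure changed in few genes. Of 39 sarcomere and Z-disc genes measured, 1 rose and 1 fell. Tcap, whose product caps titin at the Z-disc, was at 8.50, 8.89 and 9.14 at ZT0 and at 9.86, 10.00 and 10.07 at ZT12. The hearts at ZT12 were nearly alike and all above those at ZT0 (difference 1.18, SE 0.0804; adjusted p = 5.72e-09). Ankrd23, whose protein binds titin in the I-band and responds to stretch, was at 10.13, 10.30 and 10.57 at ZT0 and at 9.50, 9.74 and 10.07 at ZT12 (difference -0.59, SE 0.0855; adjusted p = 0.000369), without overlap. Among 22 myosin light chain genes and kinases, Mylk4, a kinase of muscle myosin light chains, rose from 7.10, 7.29 and 7.54 at ZT0 to 7.81, 7.96 and 8.19 at ZT12 (difference 0.64, SE 0.0888; adjusted p = 0.000256). Klhl38, a kelch-like gene of striated muscle, was 0.83 higher (SE 0.0914; adjusted p = 1.4e-05), or 0.52 higher as the mean of its 2 probe sets. Klhl33, of the same family, was 0.91 higher (SE 0.179; adjusted p = 0.00956) with overlapping groups, and its call ended without the 8 low arrays (0.105). The list medians of sarcomere and myosin light chain genes were 0.02 and -0.06.

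Ion handling was called in single genes. Slc41a3, which encodes a magnesium transporter, was at 6.89, 7.22 and 7.48 at ZT0 and at 5.54, 5.80 and 6.13 at ZT12. Its groups were well apart, with a difference of -1.36 (SE 0.094; adjusted p = 7.4e-09). It was 1 of 2 called genes among 18 of magnesium transport. Gja1, the gene of connexin 43, the main gap junction protein of ventricular muscle, was at 9.82, 9.87 and 9.99 at ZT0 and at 9.35, 9.56 and 9.67 at ZT12. These groups did not overlap (difference -0.33, SE 0.0674; adjusted p = 0.0122), but the call ended without the low arrays (0.349). It was the only called gene of 22 for sodium channels and gap junctions. None of 38 potassium channel genes passed, Kcnk1 (-0.25, adjusted p = 0.222) and Kcnma1 (-0.23, adjusted p = 0.226) having the smallest p, and none of 34 calcium cycling genes, of which Jph1 (0.25, adjusted p = 0.126) and Casq1 (0.39, adjusted p = 0.246) came nearest.

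In metabolism, called genes were spread over several lists. Ppp1r3c, a glycogen-targeting subunit of protein phosphatase 1, was at 8.74, 8.81 and 9.001 at ZT0 and at 8.09, 8.36 and 8.56 at ZT12, without overlap (difference -0.50, SE 0.0723; adjusted p = 0.000392). It was 1 of 3 called genes of 34 for glycolysis and glycogen, of which 2 rose. Dgat2, which makes triglycerides, was 0.31 higher (SE 0.0662; adjusted p = 0.0204), and it was 1 of 3 called genes of 48 for lipid handling, of which 2 fell. Of 40 insulin and FoxO signalling genes, 2 rose and 3 fell. Pik3r1, the regulatory subunit of phosphoinositide 3-kinase, was at 8.17, 8.20 and 8.38 at ZT0 and at 8.57, 8.61 and 8.75 at ZT12, with separate groups (difference 0.39, SE 0.0644; adjusted p = 0.00193). Eif4ebp1, which holds back translation, was 0.35 higher (SE 0.0678; adjusted p = 0.00858). Irs1, the insulin receptor substrate, was at 5.51, 5.92 and 6.22 at ZT0 and at 4.74, 5.28 and 5.66 at ZT12, and these groups overlapped. Its difference was -0.65 (SE 0.124; adjusted p = 0.00789), -0.42 as the mean of 2 probe sets and -0.43 without the 8 low arrays. Without those arrays Dgat2, Pik3r1, Eif4ebp1 and Irs1 did not pass (adjusted p 0.0994 to 0.366). None of 13 pyruvate dehydrogenase genes passed, Pdp1 (0.23, adjusted p = 0.101) and Pdk4 (-0.38, adjusted p = 0.453) being nearest. None of 24 NAD and sirtuin genes passed, with Nmrk2 at -0.22 (adjusted p = 0.356) and Nampt at 0.13 (0.374), and none of 27 retinoid genes, with Rdh13 at -0.35 (0.0837) and Dhrs3 at -0.25 (0.284).

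Transporters of the ABC family rose in 5 of 48 genes measured (10.4%, against 0.645% of all genes) and fell in 0. The ABC and solute carrier families were added with their values in view, so their shares are description only. All genes also include many dim ones that were seldom called in either direction (0.0947% of the 7394 dimmest). Abca6, of a subfamily that handles lipids, was at 5.56, 5.62 and 5.89 at ZT0 and at 6.18, 6.31 and 6.54 at ZT12. Abcc1, which exports glutathione conjugates, was at 6.28, 6.32 and 6.56 at ZT0 and at 6.72, 6.82 and 6.95 at ZT12. In both, all ZT12 hearts exceeded all ZT0 hearts, by differences of 0.68 (SE 0.0922; adjusted p = 0.000205) and 0.46 (SE 0.0652; adjusted p = 0.000293). Abcg2, a drug efflux pump gene, was 0.65 higher (SE 0.093; adjusted p = 0.000325) with a slight overlap, and Abcb1a, which encodes P-glycoprotein, was 0.51 higher (SE 0.0956; adjusted p = 0.00681) without overlap. Without the 8 low arrays Abca6 remained called, and Abcc1, Abcg2 and Abcb1a did not (adjusted p = 0.0864, 0.134 and 0.0613). The median of the family was 0.03, and without the 8 low arrays 1 of the 48 rose. Among 361 solute carriers, 5 rose and 3 fell (2.22%), and without those arrays 1 rose and 1 fell. Slc25a33, a mitochondrial carrier of pyrimidine nucleotides, rose from 5.58, 6.03 and 6.51 at ZT0 to 6.63, 6.85 and 7.19 at ZT12 (difference 0.82, SE 0.115; adjusted p = 0.000293). Slc43a3, a purine nucleobase transporter, was 0.53 higher (SE 0.0858), Slc6a6, the taurine transporter, 0.48 higher (SE 0.0749), and Slc46a3, of lysosomes, 0.49 higher (SE 0.0745). Those 3 calls ended without the low arrays (adjusted p 0.0514 to 0.119).

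Of 24 glutathione transferases and metallothioneins 3 rose and 0 fell (12.5% called, against 1.13% of all genes). The list median was -0.02, and 1 rose without the 8 low arrays. Of 30 antioxidant genes 1 rose, Nqo1, also with a list median of -0.02, and 0 did without those arrays. The calls for Nqo1 and for Mt2 and Gsta3 of the first list did not hold in every fit that left out 1 array. Gstt2, a theta-class glutathione transferase gene, was at 2.80, 3.11 and 3.66 at ZT0 and at 3.93, 4.30 and 4.46 at ZT12, with separate groups at a low level (difference 1.04, SE 0.124; adjusted p = 4.27e-05). Ephx1, the microsomal epoxide hydrolase, was 0.56 higher (SE 0.0796; adjusted p = 0.000326), Xdh, which makes uric acid, 0.63 higher (SE 0.0855; adjusted p = 0.000205), and Cygb, a globin, 0.38 higher (SE 0.0653; adjusted p = 0.0022). The 3 genes Ephx1, Xdh and Cygb lay outside the lists and were chosen after their values were seen. Cygb did not pass without the 8 low arrays (0.219).

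Few matrix and protease genes were called, and most of those few were lower. Of 55 collagen and matrix genes, 1 rose and 5 fell (10.9% called, against 1.13% of all genes). The list median was -0.08, or -0.04 with the atrial mean as a covariate and -0.02 without the 8 low arrays. Spon2, a secreted matrix protein gene, was at 4.46, 5.11 and 5.78 at ZT0 and at 3.25, 3.74 and 4.08 at ZT12 (difference -1.36, SE 0.167; adjusted p = 5.8e-05). Col5a3, of type V collagen, was at 4.69, 4.88 and 5.17 at ZT0 and at 3.77, 4.28 and 4.32 at ZT12 (difference -0.73, SE 0.0889; adjusted p = 5.61e-05). Neither had overlapping hearts. Col4a1, of the basement membrane, differed by -0.47 (SE 0.0887; adjusted p = 0.00686), and Serpinh1, the collagen chaperone, differed by -0.39 (SE 0.0728; adjusted p = 0.00623). Thbs2, which encodes thrombospondin 2, went the other way (difference 0.48, SE 0.0849; adjusted p = 0.00382). Without the 8 low arrays 1 of the 55 was called, Col5a3, and the others named here did not pass (adjusted p 0.0802 to 0.354). Over the 10 fibroblast markers the mean level was 7.58 to 7.87 at ZT0 and 7.42 to 7.81 at ZT12, the median difference was -0.13, and 0 was called. Smooth muscle markers, given above, were also below 0, and their part in these values was not tested.

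Among 73 metalloproteases of the ADAM, ADAMTS and MMP families, 0 rose and 2 fell (2.74% called, against 1.13% of all genes). Their median was -0.0003, with 36 of 73 above 0. Of 4 TIMP genes, their inhibitors, 2 rose and 0 fell, and 2 of the 4 lay above 0, the lowest at -0.24. These families were added with their values in view, so the counts are description only. Without the 8 low arrays 1 of the 73 fell and the same 2 TIMP genes rose. Adam19 was at 5.69, 5.82 and 6.10 at ZT0 and at 4.64, 4.99 and 5.11 at ZT12 (difference -0.96, SE 0.114; adjusted p = 3.8e-05). A dim second probe set was at -0.24, and the mean of both at -0.60. Mmp14, the membrane-type collagenase, was at 5.87, 6.09 and 6.38 at ZT0 and at 5.15, 5.52 and 5.72 at ZT12 (difference -0.61, SE 0.0945; adjusted p = 0.000818). Timp4, the TIMP typical of heart, was at 5.53, 5.81 and 6.03 at ZT0 and at 6.32, 6.68 and 6.92 at ZT12 (difference 0.86, SE 0.124; adjusted p = 0.000337). Timp3 was at 7.90, 8.17 and 8.26 at ZT0 and at 8.54, 8.66 and 8.84 at ZT12 (difference 0.54, SE 0.0985; adjusted p = 0.00525). In all 4 genes the times of day did not overlap. The call for Mmp14 ended in that setting (0.0905).

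Vascular and growth factor genes were called in a few cases. Kdr, the gene of the endothelial VEGF receptor 2, was at 8.36, 8.75 and 9.004 at ZT0 and at 8.06, 8.17 and 8.39 at ZT12, with a slight overlap (difference -0.52, SE 0.086; adjusted p = 0.0016). It was 1 of 2 called genes of 44 for endothelial growth factor signalling, both lower, and its call ended without the 8 low arrays (0.246). The mean of the 12 endothelial markers was 7.02 to 7.27 at ZT0 and 6.93 to 7.18 at ZT12. Epha4, an ephrin receptor gene, was at 7.81, 7.85 and 8.13 at ZT0 and at 6.99, 7.34 and 7.44 at ZT12, without overlap (difference -0.67, SE 0.0971; adjusted p = 0.000365). Bmp4, a bone morphogenetic protein gene, rose from 4.71, 4.79 and 5.13 at ZT0 to 5.16, 5.46 and 5.87 at ZT12 (difference 0.61, SE 0.107; adjusted p = 0.00321) and was the only called gene of 45 in its list. Of 45 adrenergic signalling genes 1 was called.

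Stress and inflammatory lists had few calls. Rcan1, a calcineurin inhibitor that is itself a calcineurin target, was at 8.08, 8.32 and 8.58 at ZT0 and at 7.21, 7.62 and 8.11 at ZT12, with a slight overlap (difference -0.73, SE 0.128; adjusted p = 0.00321). It was the only called gene of 27 for dual specificity phosphatases and calcineurin. Of 23 endoplasmic reticulum chaperone and stress genes, Hyou1, a chaperone, fell (difference -0.44, SE 0.0718; adjusted p = 0.0016) and Herpud1, of protein degradation, rose (difference 0.31, SE 0.0593; adjusted p = 0.00766). The list median was -0.21 with 2 of 23 genes above 0, and it was -0.14 without the 8 low arrays. When eBayes used a trend or dim genes were left out, 7 of the 23 fell, Hyou1 with Creld2, Dnajc3, Hsp90b1, Hspa5, Pdia6 and Xbp1, and Herpud1 rose. Without those arrays Rcan1, Hyou1 and Herpud1 did not pass (adjusted p 0.298 to 0.332). None of 27 heat shock chaperone genes passed, Dnajb5 (-0.25, adjusted p = 0.0997) and Chordc1 (-0.28, adjusted p = 0.121) being nearest. None of 25 Atf4 and amino acid stress genes passed either, with Cebpb at 0.43 (0.0651) and Cth at 0.40 (0.145), nor did any of 46 interleukin and chemokine genes, with Il33 at 0.58 (0.0662) and Ccl11 at 0.42 (0.214). Il33 passed with only the 14 wild-type arrays (adjusted p = 0.0407), with a trend (0.0382), with dim genes left out (0.0286), without ZT12 replicate 3 (0.0432) or 5 (0.0287), with the atrial mean as a covariate (0.000314), and without the 4 (0.00742) or the 8 (0.0134) arrays low in atrial transcripts. It did not pass after a further quantile normalization (0.0506). The remaining alternatives, with the other single arrays, are not given for it. With dim genes left out, 1 Atf4 gene (Cebpb), 1 calcium cycling gene (Jph1) and 1 pyruvate dehydrogenase gene (Pdp1) were called higher, and 1 retinoid gene (Rdh13) and 2 heat shock genes (Chordc1 and Dnajb5) lower. That filter uses the times compared, so a gene can pass it through the time at which it is higher. When eBayes used a trend, with no such filter, Cebpb and Pdp1 were also called higher, as was the heat shock gene Hspb7. Jph1, Rdh13, Chordc1 and Dnajb5 were not called with a trend. Of 30 immediate early genes 24 lay above 0, the median was 0.11, and 1 was called. The median was 0.19 without ZT12 replicate 5, also 0.19 without the 4 arrays lowest in atrial transcripts, 0.17 with the atrial mean as a covariate, and 0.25 without the 8 low arrays, where 0 was called.

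**Figure D4:**
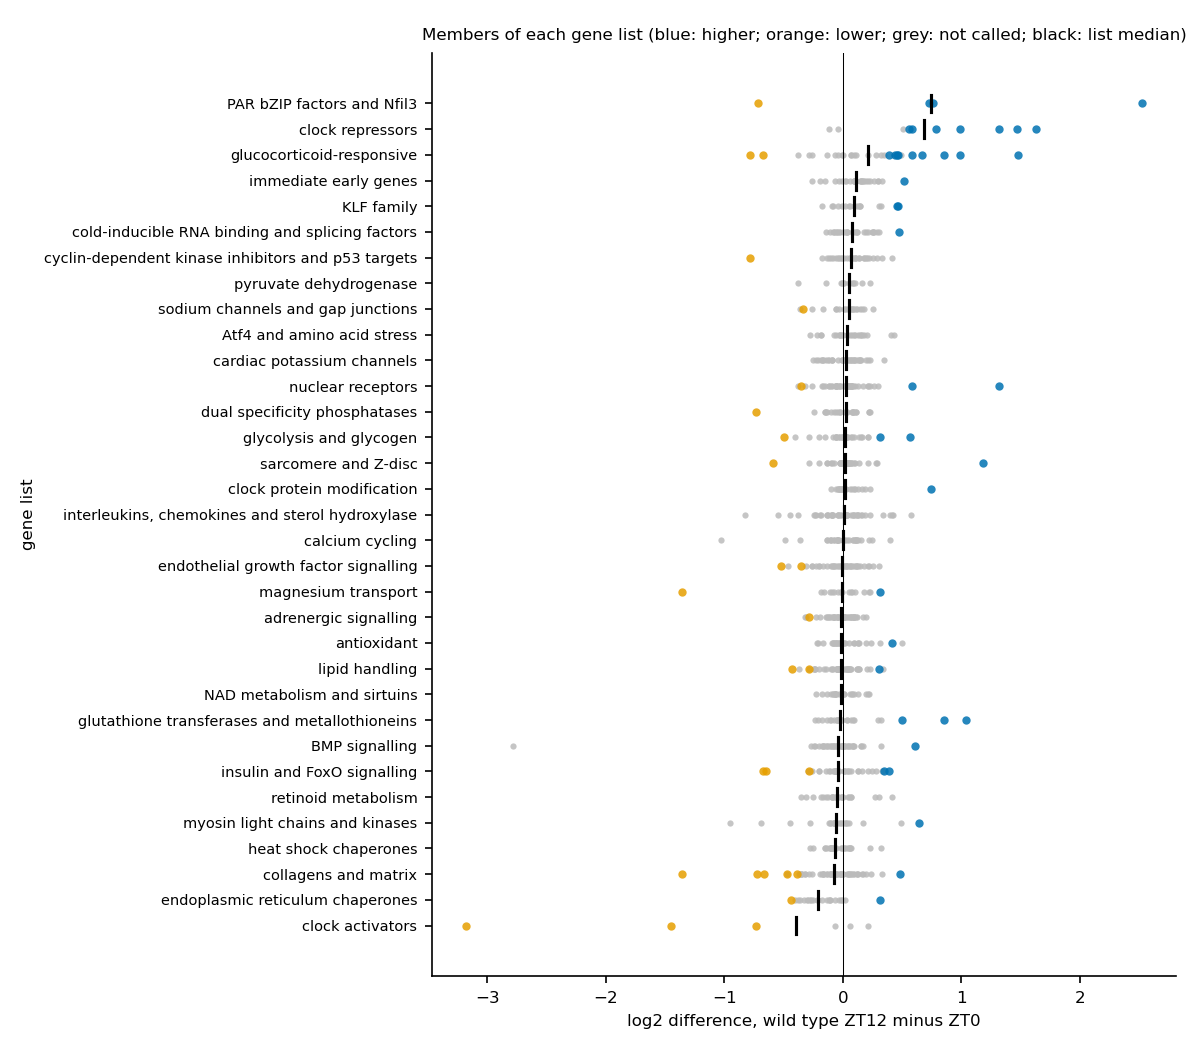
Each point is 1 gene of a list, placed by its log2 difference between ZT12 and ZT0 in wild-type hearts (horizontal axis), and black strokes mark list medians. The largest medians are those of the D-box factors (0.74) and clock repressors (0.69), the lowest is that of the clock activators (-0.40), and most others lie near 0.

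Among the remaining largest changes, Rhobtb1 was at 5.69, 5.88 and 6.14 at ZT0 and at 6.72, 6.97 and 7.05 at ZT12 (difference 1.02, SE 0.0875; adjusted p = 3.3e-07). Gdap10 was 0.90 higher (SE 0.152) and Mthfd1l, a mitochondrial enzyme of one-carbon metabolism, 0.86 higher (SE 0.147). Tspan18, a tetraspanin gene, was at 5.89, 6.20 and 6.39 at ZT0 and at 5.20, 5.44 and 5.72 at ZT12 (difference -0.73, SE 0.0966; adjusted p = 0.000144). Trp53i11, the gene next to Tspan18 on chromosome 2, also fell (difference -0.58, SE 0.0833; adjusted p = 0.000325). They were 1 of 8 pairs of called genes within 100 kb of each other, 5 of which moved in the same direction. Fabp7, a fatty acid binding protein gene, differed by -0.74 (SE 0.146; adjusted p = 0.0103) and Fam124b by -0.77 (SE 0.158; adjusted p = 0.0132), both at low levels. Without the 8 low arrays the calls for Mthfd1l, Trp53i11, Fabp7 and Fam124b ended (adjusted p 0.07 to 0.245).

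Several called genes with small p outside all lists are named here after their values were seen. Coq10b, for a coenzyme Q binding protein, was at 6.88, 7.15 and 7.37 at ZT0 and at 7.76, 7.96 and 8.03 at ZT12 (difference 0.78, SE 0.0785; adjusted p = 3.86e-06). Ppat, the first enzyme of purine synthesis, rose by 0.76 (SE 0.0809; adjusted p = 8.4e-06), and Gpcpd1, which breaks down glycerophosphocholine, from 8.98, 9.25 and 9.51 to 9.82, 9.97 and 10.15. Hdac4, a class IIa histone deacetylase gene, was 0.61 higher (SE 0.0777), Cd200, an inhibitory ligand of immune cells, 0.64 higher (SE 0.0819), and Ankrd12 0.64 higher (SE 0.0659). Mid1ip1, an activator of fatty acid synthesis, was 0.61 higher, or 0.32 as the mean of 3 probe sets. Lrrc10, a heart-specific gene, was 0.38 higher (SE 0.0721; adjusted p = 0.00727). Leo1, of the PAF1 elongation complex, differed by -0.64 (SE 0.0882), Ypel2 by -0.62 (SE 0.0704) and Akap1, which anchors protein kinase A at mitochondria, by -0.46 (SE 0.0749). Clasp1, a microtubule-binding protein gene, was at 9.51, 9.61 and 9.72 at ZT0 and at 9.15, 9.25 and 9.33 at ZT12 (difference -0.36, SE 0.0563; adjusted p = 0.000888). The transcription factor genes Prox1 and Gata4 differed by -0.40 (SE 0.0825; adjusted p = 0.0136) and -0.38 (SE 0.084; adjusted p = 0.0257). The call for Gata4 was lost without ZT0 replicate 4 or ZT12 replicate 2 or 7 (adjusted p 0.0598 to 0.0658) and without the 4 arrays with the lowest atrial mean (0.0678). Lrrc10, Akap1, Clasp1, Prox1 and Gata4 did not pass without the 8 low arrays (adjusted p 0.0613 to 0.394).

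The calls of 19 further genes did not hold in every fit that left out 1 array. Mt2, a metallothionein gene that binds zinc, was at 7.73, 8.41 and 8.90 at ZT0 and at 8.92, 9.25 and 9.49 at ZT12 (difference 0.85, SE 0.184; adjusted p = 0.0208). It was lost without ZT0 replicate 1 or ZT12 replicate 6 (adjusted p 0.0517 to 0.0534). Abca8a, a lipid transporter gene (0.33), was lost without ZT0 replicate 1 or 2 or ZT12 replicate 2 or 7 (0.0502 to 0.0519), and Tbc1d4, which controls glucose transporter traffic (-0.29), without ZT0 replicate 2 or ZT12 replicate 3 or 4 (0.0502 to 0.0554). Ier3, an immediate early gene (0.51), was lost without replicate 2 or 4 of either time or ZT12 replicate 6 (0.0521 to 0.0564), and Olfr1033, an olfactory receptor gene with close relatives (-0.79), without ZT0 replicate 1, 5 or 6 or ZT12 replicate 1 or 3 (0.0501 to 0.0577). Vegfa, the endothelial growth factor (-0.36), was lost without ZT0 replicate 1, 2, 5 or 6 or ZT12 replicate 1, 3, 5 or 7 (0.0503 to 0.0727). Klhl30 (-0.37, and -0.20 as a mean of probe sets) was lost without ZT0 replicate 2, 3, 6 or 7 or ZT12 replicate 1, 2, 4 or 7 (0.0518 to 0.0774). Gsta3, a glutathione transferase gene (0.50), was lost without ZT0 replicate 2, 4, 5 or 7 or ZT12 replicate 1, 2, 4, 6 or 7 (0.0565 to 0.0834). Pfkfb3, a regulator of glycolysis (0.56, and 0.85 without the 8 low arrays), was lost without ZT0 replicate 1, 2, 4, 5 or 6 or ZT12 replicate 1, 2, 4 or 7 (0.0542 to 0.0932).

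The others held without few arrays. Ppp1r3a, a glycogen-targeting phosphatase subunit (0.31), stayed called on leaving out ZT0 replicate 1, 2 or 7 or ZT12 replicate 4, and was lost without any other wild-type array (adjusted p 0.0509 to 0.0881). Trpm7, a magnesium-permeable channel and kinase gene (0.31), stayed called without ZT0 replicate 7 or ZT12 replicate 1, 3 or 5 (otherwise 0.053 to 0.0822). Nqo1, a quinone reductase gene (0.41), stayed called without ZT12 replicate 2, 5 or 7 (otherwise 0.0513 to 0.085), and Plin5, of lipid droplets (-0.43), without ZT0 replicate 6 or ZT12 replicate 1 or 5 (otherwise 0.058 to 0.111). For Slc44a2, a choline transporter (0.32), these were ZT0 replicates 3 and 4 and ZT12 replicate 5 (otherwise 0.05 to 0.103). For Slc27a4, of fatty acid uptake (-0.36, and -0.21 without the 8 low arrays), they were ZT0 replicate 4 and ZT12 replicates 1 and 7 (otherwise 0.0649 to 0.107). For Slc6a11, a GABA transporter (-0.36, and -0.23 without the 8 low arrays), they were ZT0 replicates 2 and 3 and ZT12 replicate 1 (otherwise 0.0537 to 0.0977). Acads, of short-chain fatty acid oxidation (-0.28), stayed called only without ZT0 replicate 4 (otherwise 0.0544 to 0.105), Eln, the gene of elastin (-0.66), only without ZT12 replicate 1 (otherwise 0.0622 to 0.106), and Pde3a, a cyclic AMP phosphodiesterase gene (-0.28), only without ZT12 replicate 6 (otherwise 0.0593 to 0.101). Of these 19 genes, all but Pfkfb3 also failed to pass without the 8 low arrays (adjusted p 0.0847 to 0.552).

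Values of the Rev-erb alpha knockout hearts at ZT12 are set beside the wild type for some of the leading genes, chosen after their values were seen. The contrast of knockout with wild type at ZT12 uses the same 7 ZT12 hearts, so the contrasts are not independent. It called 162 of the 22180 genes (0.73%). Arntl was at 7.27 ± 0.0598 at ZT0 (SD, n = 7), at 4.08 ± 0.207 at ZT12 (n = 7) and at 6.54 ± 0.216 in the knockout at ZT12 (SD, n = 5), which differed from wild type at ZT12 (limma adjusted p = 1.24e-12). Slc41a3 was at 7.18 ± 0.184, 5.83 ± 0.181 and 7.59 ± 0.167 in the same order (knockout adjusted p = 9.55e-10). In these genes the knockout mean at ZT12 lay nearer to the wild-type mean at ZT0 than to that at ZT12. Clock was at 8.59 ± 0.078, 7.85 ± 0.0685 and 8.49 ± 0.0871 (adjusted p = 4.77e-06), and Ddit4 at 5.56 ± 0.161, 4.88 ± 0.284 and 6.26 ± 0.316 (adjusted p = 8.27e-06). Mylk4 was at 7.32 ± 0.161, 7.96 ± 0.13 and 6.87 ± 0.214 (adjusted p = 1.46e-06). For Slc41a3, Ddit4 and Mylk4 the knockout mean lay beyond the wild-type mean at ZT0. Dbp, at 5.56 ± 0.289, 8.09 ± 0.0996 and 8.29 ± 0.202, and Per3, at 4.17 ± 0.216, 5.80 ± 0.176 and 5.78 ± 0.161, did not pass between the genotypes (adjusted p = 0.582 and 0.966). Tcap was at 8.81 ± 0.216, 9.99 ± 0.0692 and 10.28 ± 0.0835 (adjusted p = 0.179). Zbtb16, at 6.77 ± 0.16, 8.25 ± 0.162 and 8.70 ± 0.212, differed between the genotypes in the direction away from ZT0 (adjusted p = 0.0361). Of these hearts, 3 of the 5 knockout and 4 of the 7 wild-type ones are low in atrial transcripts. Without them 2 knockout and 3 wild-type hearts at ZT12 were left, and the contrast called 14 genes. Of the knockout hearts left, replicate 3 had Bmp10 at 4.15 with an atrial mean of 8.57, and replicate 1 had Bmp10 at 9.01. The wild-type hearts left had Bmp10 at 9.63 to 10.14, so the groups left were not matched for Bmp10. Arntl (2.58, adjusted p = 7.5e-07), Slc41a3 (1.64, 8.97e-05), Clock (0.72, 0.0365), Ddit4 (1.08, 0.0206) and Mylk4 (-0.85, 0.042) were still called between the genotypes. Zbtb16 then did not pass (0.51, adjusted p = 0.35), and neither did Dbp, Per3 or Tcap.

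**Figure D5:**
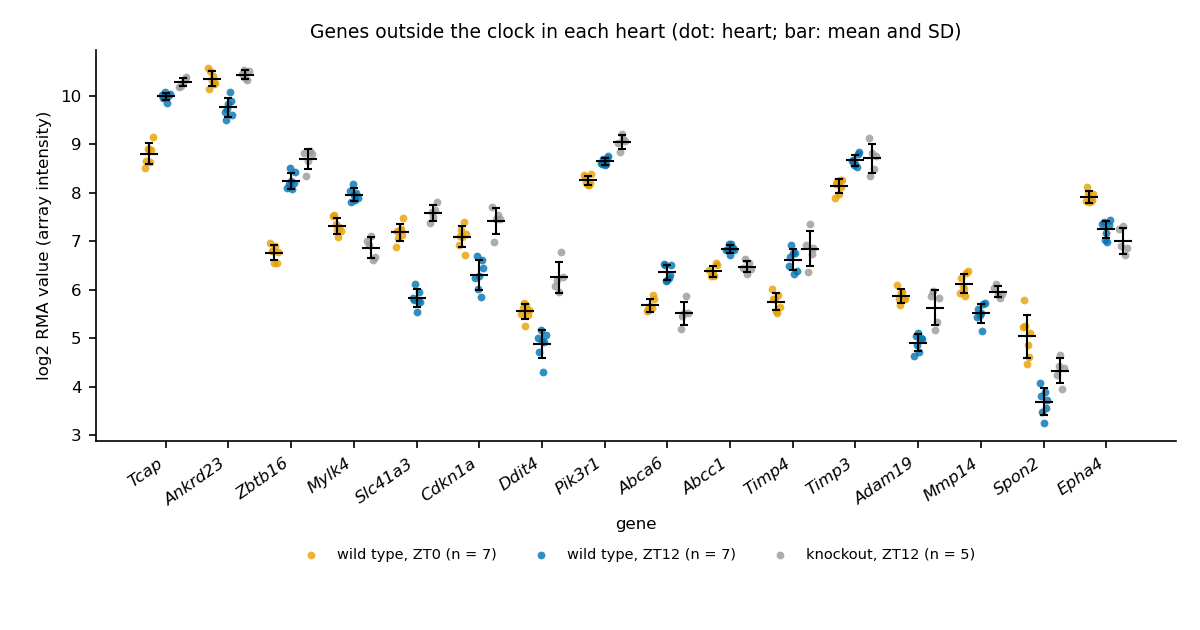
Each dot is 1 heart (orange wild type at ZT0, blue wild type at ZT12, grey Rev-erb alpha knockout at ZT12), the vertical axis is the log2 array value, and bars give the mean and SD. Slc41a3, Cdkn1a and Ddit4 are lower in wild type at ZT12 than in both other groups, and Tcap and Zbtb16 are high in both ZT12 groups.

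By kind of gene, 241 of 18964 protein-coding genes were called (1.27%), 6 of 1926 long noncoding RNAs, 2 of 80 small nucleolar RNAs, both lower, and 0 of 478 microRNAs. Large sets of housekeeping genes had no call, namely 42 NADH dehydrogenase subunits, 66 ribosomal proteins, 71 proteins of the mitochondrial ribosome and 49 proteasome genes. When all 41345 probe sets were tested together, 177 were called (0.428%). Of the 16010 that list no gene, 15 were called (0.0937%), 12 of them higher at ZT12, and of the 1814 that list several genes, 4 were called (0.221%).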

How the data were processed

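Total RNA of 19 hearts was measured on Affymetrix arrays. The deposited values are log2 intensities per probe set, produced by the authors with RMA (background correction, quantile normalization and probe summary), per the submitters' processing notes; its version is not given in the sources used here. The log2 scale was taken from the range of the values. Array medians were 3.25 to 3.32, and correlations between arrays 0.972 to 0.985.

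Of 41345 probe sets, 23521 list 1 gene in the platform annotation, and 23328 of these matched a GRCm38.p6 gene table. The 1814 probe sets that list several genes and the 16010 that list none were left out of the gene tests. The model was fitted over all 19 arrays with 1 mean per group in limma 3.58.1 (R 4.3.3), with eBayes without trend and two-sided tests adjusted by Benjamini-Hochberg over 22180 genes. All 19 arrays share the estimate of the spread. The analysis was tested on simulated data. Promoter motifs were counted in Python 3.11.15.

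The members and gene lists were chosen with earlier results of these data known. Named genes are the called genes with the 15 greatest rises and the 15 greatest falls, the 6 of each among the 2218 brightest genes, the called members of each list, and the 2 genes with the smallest p where a list had none. A limit of 6 called members per list was exceeded for the clock repressors and the glucocorticoid-responsive genes, all of whose called members are named. Called members of the solute carrier, ABC, ADAM and MMP, TIMP and kelch-like families were added with these values in view, as were 18 single genes.

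Replicate numbers did not pair the hearts: correlations of same-numbered deviations were -0.04 to 0.04, and 0 of 7 exceeded 0.1. Alternatives were other arrays in the model, a trend, averaged probe sets, a filter on dim genes, a further normalization or centring, a replicate block, terms or omissions for atrial transcripts and leaving out each array.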

Additional observations from a re-analysis of the deposited data

Results flagged for a closer look

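In 10 of 212 groups of 7 hearts looked at among the named genes, 1 heart stood further from its neighbour than Dixon's critical value allows, and chance gives about 1 in 20. At ZT12, Ciart was at 5.24 in replicate 2, with the next heart at 5.75, and Cry2 at 5.30 in replicate 5, with the next at 5.52. Bhlhe41 was at 5.81 in replicate 4, above the next at 5.68. Dgat2 was at 9.25 in replicate 2, below the next at 9.36, and Abcg2 at 5.88 in replicate 1, below the next at 6.33. At ZT0, Fabp7 was at 3.61 in replicate 5 (next 4.08) and Abcb1a at 5.90 in replicate 3 (next 6.16). Noct was at 4.66 in replicate 4 (next 4.99). Gja1 was highest at 9.99 in replicate 6 (next 9.89), and Herpud1 highest at 9.80 in replicate 5 (next 9.59). The calls for these 10 genes were kept without any single array.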

How the results depend on the processing

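Of 106 named genes, 0 changed direction under any alternative, 84 kept their call when any single wild-type array was left out, and 43 kept it throughout. The count of genes higher at ZT12 (143) ran from 104 to 157 and that of genes lower at ZT12 (107) from 73 to 102 on leaving out 1 array. Leaving out dim genes, those with a mean under 4 at both times, with 10574 genes tested, called 258 higher and 188 lower. This filter uses the groups compared, so a gene can pass it through the time at which it is higher. Its added calls are therefore not separate support. Leaving out the 8 arrays low in atrial transcripts, which removes 5 of the 14 compared hearts, called 44 and 17, and 45 of the 106 named genes passed. A replicate block over the 14 wild-type arrays called 73 and 51, and 75 of the 106 passed, though the numbers did not pair the hearts and 1 of 7 ZT0 arrays correlated best with its own number. With the alternatives other than these and the single arrays, calls of named genes ended in Tef, Nr1d1, Thra, Gata4 and 15 of the further genes whose calls did not hold on leaving out each array. The cause of these shifts was not tested beyond the fewer genes or arrays. The other alternatives gave counts within 1.5 times of those reported, between 121 and 212 higher and between 77 and 147 lower. Omission of the 4 arrays with an atrial mean under 6 was chosen after seeing the data and called 134 and 77. Small changes are limited by spread, since the smallest called difference was -0.24, and dim genes have few calls.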
